A study of Brachypodium distachyon with 6 samples.

Results

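The genes described here are single-cell marker genes of the earliest stomatal lineage of the grass leaf epidermis, called stage 0–2, followed in bulk RNA sequencing of leaf tissue labelled protoplasted or non-protoplasted. They were chosen by the study's single-cell comparison of stage 0–2 cells with other cells, and ranked by the share of cells in which the gene was detected in the group minus that share in other cells. Genes that were also on the study's mesophyll, silica lineage or mitotic (G2/M) lists, whichever their direction there, were left out. So were listed regulators and their targets, and genes that carry a name in the study. Of 733 listed stage 0–2 genes at hand, 581 were left out and 152 remained, fewer than the 200 that the rule asked for, so that all of them were taken. The list at hand is cut, so further genes that meet the rule may exist that were not analysed here. The difference that ranked them ran from 39.3 percentage points (70.1% against 30.8% of cells for BdiBd21-3.3G0124100) down to 3.2 points for BdiBd21-3.1G0842200 and −4.5 points for BdiBd21-3.1G1053300, the only member detected in fewer cells of the group than of the others. These shares chose the members and are given as a description only. Of the 152 members, 150 were found among the 36647 genes of the count table, and all 150 had enough counts to be tested.

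In grasses, the leaf epidermis forms at the leaf base, where protodermal cells divide in files and older cells are displaced towards the tip. Some files gain stomatal identity through the bHLH factor SPEECHLESS and its partners, and an asymmetric division in these files then gives a small cell that becomes the guard mother cell. Stage 0–2 covers this stretch, from protodermal stem cells to the asymmetric division. Of the later factors, MUTE acts in subsidiary cell identity and in the division of the guard mother cell, and FAMA in guard cell differentiation.

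Protoplasts are plant cells without walls, released by digesting tissue with enzymes, here Macerozyme R10 and Cellulase Onozuka RS, and single-cell sequencing of leaves starts from them. Leaf developmental zones of 3 wk old, soil-grown wild-type Bd21-3 plants, an inbred line of *Brachypodium distachyon*, were used throughout. The libraries labelled protoplasted (n = 3) came from 10 digested zones and the libraries labelled non-protoplasted (n = 3) from 5 zones that were not digested, so that each library pools several leaves, and poly-A RNA was sequenced. These groups follow the sample titles and library names, but the samples also carry a treatment entry, which in all 6 states the opposite group. Directions below rest on the titles and library names, and every sign would be exchanged under the treatment entry. Which entry is right was not settled here: the markers were found in single cells released as protoplasts, yet, as given below, many were at or near 0 counts in the libraries labelled protoplasted. The libraries held 17482438 to 24621927 counts on genes, and 3 counts stood at 0.106 to 0.205 CPM, a floor that covers counting error only. CPM are counts scaled to a common library size with edgeR's TMM factors.

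Most stage 0–2 markers were lower in the libraries labelled protoplasted. Of 150 tested members, 120 were lower (80.0%), where 38.3% of all 23677 genes tested were lower. Only 20 members were higher (13.3%), against a background of 38.7%, and 10 were not called. Calls are from edgeR's quasi-likelihood F test, with p-values adjusted over all genes tested and a threshold of 0.05. The median log2 fold change of the members was −3.43 (quartiles −7.36 and −0.91), and that of all genes tested was 0.04. Past a log2 fold change of −3, an 8-fold difference, lay 81 members (54.0%), against 12.6% of all genes tested, whereas 1 member lay above 3, where the background was 5.09%. Under a stricter filter, a minimum of 10 counts per library in all 6, 104 members were tested, of which 74 were lower (71.2%, background 36.6% of 19041 genes) and 35 below −3 (33.7%, background 6.52%), with a median of −1.93 against 0.06 for all genes. Every library labelled protoplasted was below every library of the other group in 121 members (background 40.1%) and above in 20 (background 40.4%). In bulk tissue, fewer cells of a type and less RNA per cell cannot be told apart. All 6 libraries went into each fit, and the smallest two-sided p that an exact permutation of 3 against 3 libraries can give is 0.1, so that single genes were tested only in the fit over all genes.

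**Figure D1:**
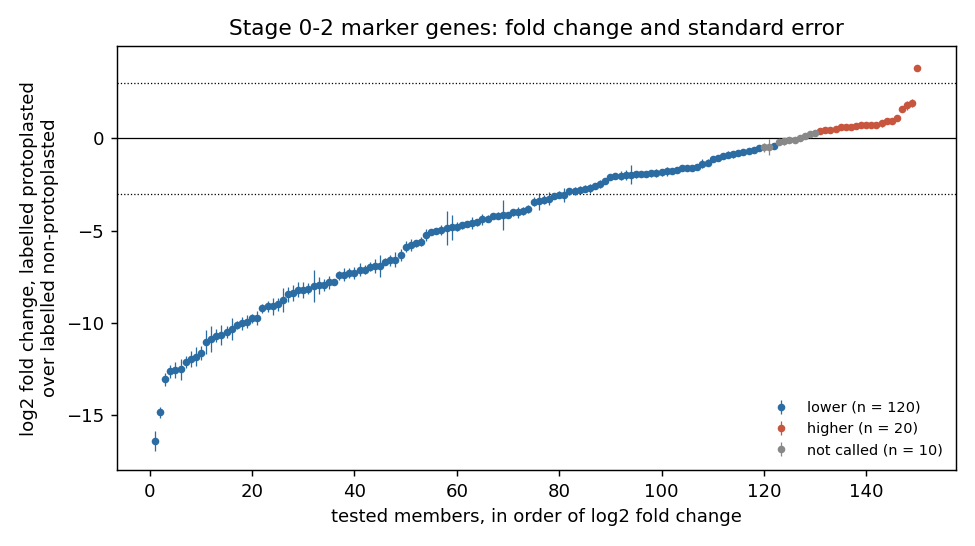
Log2 fold change of each of the 150 tested members (libraries labelled protoplasted over libraries labelled non-protoplasted; n = 3 each), ordered along the x axis. Bars are the standard error of the fit, colours give the call, and dotted lines mark −3 and 3; the values run from −16.39 to 3.79, with 120 members lower and 20 higher.

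The members changed by very different amounts. Among those called lower, the log2 fold change ran from −16.39 to −0.44, with a median of −4.75, and among those called higher from 0.41 to 3.79, with a median of 0.70. Of the 20 higher members, 15 stayed below a log2 fold change of 1. A log2 fold change under −10 was fitted for 18 members, between −10 and −6 for 31, and between −6 and −3 for 32. The order of the members was kept between libraries of a group, with a Pearson correlation of log2 CPM of 0.975 to 0.994 over the 150 members, and largely lost between groups, with 0.243 to 0.342. Between the mean TPM of both groups, Spearman's rho was 0.15 over the members and 0.59 over all genes tested that have a length (n = 23672). These correlations are across genes, which are not independent replicates.

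**Figure D2:**
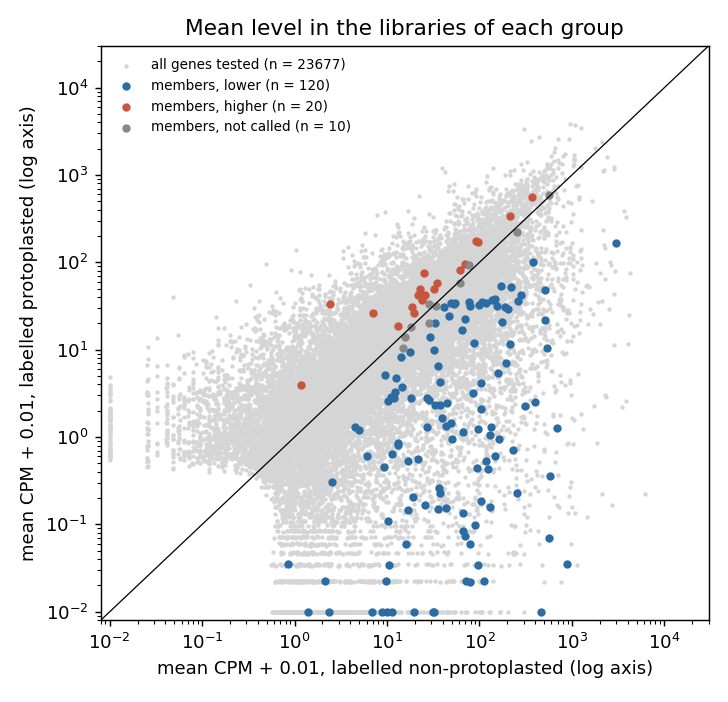
Mean CPM + 0.01 of each gene in the libraries labelled non-protoplasted (x axis) and labelled protoplasted (y axis), both on log axes, for 23677 tested genes (grey) and the 150 tested members (coloured by call). Members lie mostly below the line of equal level, and 24 of them lie at or near the bottom, with at most 3 counts in every library labelled protoplasted.

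A group of 24 members (16.0%) was almost without reads in the libraries labelled protoplasted, with at most 3 counts in each, against 3.94% of all genes tested. In 10 of these, no read was counted in any of the 3 libraries. Their mean level in the libraries labelled non-protoplasted ran from 0.835 to 879.3 CPM (median 17.9), and no such library held fewer than 10 counts of any of them. Measured against 3 counts per library, they were at least 7.55-fold to at least 7948-fold lower. With these members set at that bound, the median over all tested members was −3.36. In the protoplasts sequenced as single cells, the same 24 genes were detected in 12.4% to 76.5% of the cells of the group (median 31.2%), which is part of how they were chosen. Members with fewer than 10 counts in every library labelled protoplasted, 35 in all, entered the test only through the libraries of the other group, and no member entered it only through the libraries labelled protoplasted. Of all 23677 genes tested, 1551 had fewer than 10 counts in every library labelled protoplasted, and 1043 in every library labelled non-protoplasted.

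The gene tables used here pair no name or function with any member, so that the genes are given by their identifiers. No coordinates or sequences of the members were used. A Bd21 locus is given for 10 members in a list that the study selected by fold change on these same samples, and 0 of these loci were found in the RefSeq table. Of these 10, 8 were lower and 2 higher, with log2 fold changes from −6.90 to 1.11, which is no independent evidence of their direction.

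The 5 top-ranked markers covered a wide range. BdiBd21-3.3G0124100, ranked first, had no counts at all in the 3 libraries labelled protoplasted, and its counts in the others were 8879, 7243 and 9526 (606, 335 and 451 CPM). The groups were thus fully apart, and the gene was at least 4191-fold lower (adjusted p = 1.29e-07, edgeR). BdiBd21-3.2G0023400, at rank 2, stood at 0.955, 1.74 and 5.81 CPM in the libraries labelled protoplasted, whereas the others held 10.1 to 12.2 CPM. Its groups did not overlap, but library 3 labelled protoplasted was well above the other two, and the log2 fold change of −1.97 ± 0.51 (SE, adjusted p = 0.00577) became −3.02 without it. BdiBd21-3.4G0511900, next in rank, fell from 129.8 ± 4.31 CPM (SD, n = 3) in the libraries labelled non-protoplasted to 1.04 ± 0.407 CPM (SD, n = 3). This was a log2 fold change of −6.96 ± 0.24 (adjusted p = 1.45e-08, edgeR), with the 3 low libraries between 0.638 and 1.45 CPM.

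The members at ranks 4 and 5 changed little. BdiBd21-3.2G0163300, detected in 82.3% of the group's cells, stood at 5.19, 5.92 and 4.33 CPM in the libraries labelled protoplasted and at 10.4, 9.72 and 8.09 CPM in the others, 1.82-fold lower without overlap (adjusted p = 0.00181, edgeR). BdiBd21-3.3G0318500, detected in 80.0% of the group's cells, went the other way, with 90.7, 77.9 and 79.6 CPM against 58.3, 65.1 and 60.9 CPM. This rise was 1.35-fold, again without overlap (log2 fold change 0.43 ± 0.11 SE, adjusted p = 0.00677, edgeR). Along the ranking, 39 of the first 50 members were lower, and 34 of the 48 tested at ranks 51 to 100. At ranks 101 to 152, 47 of 52 were lower, beside 38.3% of all genes tested. The median log2 fold changes were −2.83, −1.79 and −4.99 in this order, against 0.04 for all genes tested. Spearman's rho between the ranking difference and the log2 fold change was 0.13 over the 150 members.

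Besides the first-ranked gene, the steepest falls among members with a mean of at least 10 CPM were those of BdiBd21-3.2G0252000 and BdiBd21-3.2G0061700. BdiBd21-3.2G0252000 had 1, 0 and 1 counts where labelled protoplasted but 929, 871 and 838 CPM in the others, at least 7948-fold lower (adjusted p = 4.18e-09, edgeR). BdiBd21-3.2G0061700 had 0, 2 and 3 counts against 557, 548 and 589 CPM, at least 5102-fold lower (adjusted p = 5.23e-09, edgeR). Both genes were thus among the well expressed ones in one set of libraries and at the floor in the other. The fitted log2 fold changes of genes at the floor depend on the prior count, so the lower bounds are given.

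**Figure D3:**
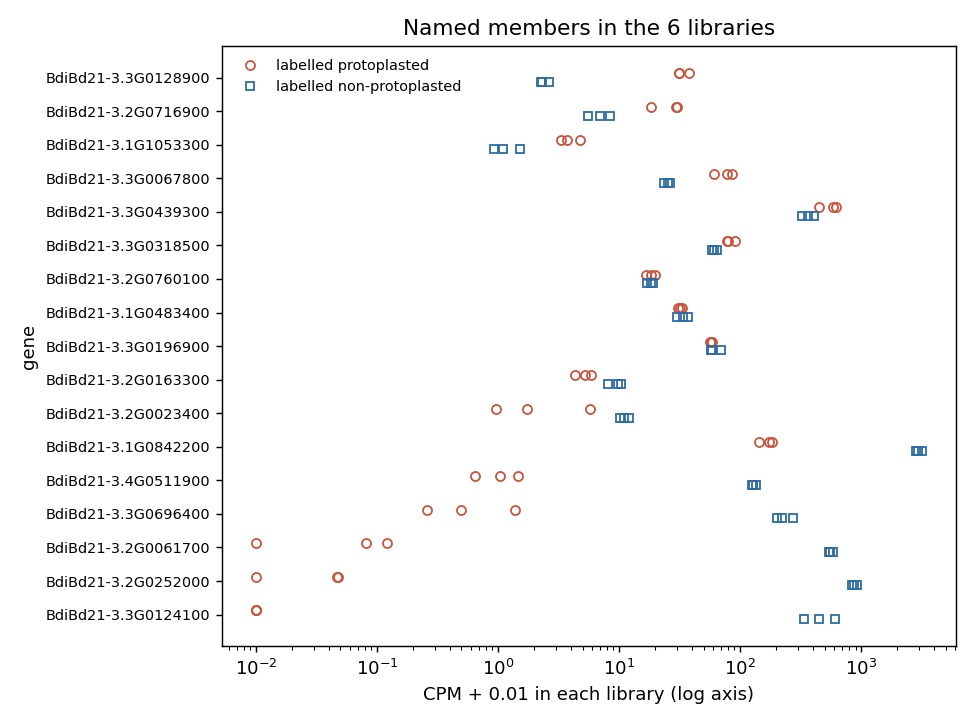
CPM + 0.01 in each of the 6 libraries (log axis) for 17 members named by rule, ordered by log2 fold change from the lowest (bottom) to the highest (top). Circles are libraries labelled protoplasted and squares libraries labelled non-protoplasted (n = 3 each); the bottom 3 genes had 0 to 3 counts in every library labelled protoplasted, and the groups overlap for 3 genes near 0.

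In TPM, the deposited measure per gene length and library, the members together made up 5062, 5301 and 5494 in the libraries labelled protoplasted and 26581, 24168 and 25087 in the others. These sums correspond to 0.529% and 2.53% of all TPM, a ratio of 4.78 between the group means, with no overlap. BdiBd21-3.1G0842200, last but one in the ranking and detected in 96.8% of other cells too, had the highest mean TPM over the 6 libraries, with 355.5 in the libraries labelled protoplasted and 5193 in the others. It alone held 20.5% of the members' TPM in the libraries labelled non-protoplasted, and without it the ratio of the sums was 4.07. Its CPM were 184.5, 144.8 and 174.2 against 3199.5, 2949 and 2862, a log2 fold change of −4.16 ± 0.17 (SE, adjusted p = 4.11e-08, edgeR).

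The next highest members moved in opposite directions. BdiBd21-3.3G0696400, a gene model of 320 bases, stood at 1.37, 0.248 and 0.481 CPM in the libraries labelled protoplasted against 276.1, 220.7 and 203.2 CPM, or a mean TPM of 6.55 against 1744. The log2 fold change of −8.39 ± 0.44 (SE, adjusted p = 1.62e-07, edgeR) became −9.30 without library 1 labelled protoplasted, the highest of its group. BdiBd21-3.3G0439300 was the most abundant member in the libraries labelled protoplasted, where it held 19.0% of the members' TPM, with a mean TPM of 1001.7 against 547.4 in the others. Its CPM of 451.8, 590.1 and 618.3 were all above the 325.1, 407.1 and 367.1 CPM of the other libraries, 1.51-fold higher (adjusted p = 0.00786, edgeR). Across the members, 46 had a mean TPM of at least 100 in the libraries labelled non-protoplasted and 11 in the libraries labelled protoplasted. The median of the members' mean TPM was 49.2 and 4.53, while that of all genes in the table was 2.39 and 2.34.

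The largest rises among the members were modest beside the falls. BdiBd21-3.3G0128900, detected in 15.9% of the group's cells and 3.8% of others, stood at 31.3, 37.9 and 31.5 CPM in the libraries labelled protoplasted and at 2.32, 2.64 and 2.27 CPM in the others. It was the only member above a log2 fold change of 3, at 3.79 ± 0.16 (SE, adjusted p = 3.97e-08, edgeR), and its groups were far apart. BdiBd21-3.2G0716900 rose 3.70-fold, from 6.99 ± 1.39 CPM to 26.0 ± 6.51 CPM (SD, n = 3 each), with the lowest library labelled protoplasted at 18.5 CPM and the highest of the others at 8.37 CPM (adjusted p = 3.95e-05, edgeR). BdiBd21-3.3G0067800 rose 2.96-fold, from 25.3 ± 1.44 to 74.7 ± 12.8 CPM (SD, n = 3 each), again without overlap (adjusted p = 7.81e-06, edgeR). The last-ranked member, BdiBd21-3.1G1053300, stood at 3.32, 4.75 and 3.74 CPM against 1.17 ± 0.296 CPM (SD, n = 3) in the others and was 3.41-fold higher without overlap (adjusted p = 0.000203, edgeR).

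The 10 members that were not called had log2 fold changes from −0.50 to 0.30. BdiBd21-3.2G0760100 was the nearest to 0, with 16.6, 19.9 and 18.5 CPM in the libraries labelled protoplasted and 18.5, 16.9 and 19.0 CPM in the others (log2 fold change 0.02 ± 0.13 SE, adjusted p = 0.907, edgeR). BdiBd21-3.1G0483400 stood at 31.9 ± 1.34 and 33.6 ± 3.42 CPM (SD, n = 3 each), with a log2 fold change of −0.08 ± 0.12 (SE, adjusted p = 0.564, edgeR). BdiBd21-3.3G0196900 stood at 58.0 ± 1.32 and 61.8 ± 6.82 CPM (SD, n = 3 each), at −0.09 ± 0.12 (SE, adjusted p = 0.484, edgeR). In all 3, the libraries of both groups overlapped, but scaling by library size alone moved the median of all genes by 0.38 on the log2 scale and put these genes at 0.40, 0.31 and 0.29, the latter 2 with their direction turned. With that scaling all 3 were called higher (adjusted p = 0.0181, 0.0334 and 0.0338, edgeR).

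By the chromosome number in their identifiers, 40 members lay on chromosome 1, 42 on chromosome 2, 38 on chromosome 3, 22 on chromosome 4 and 10 on chromosome 5. Chromosomes 1, 2, 4 and 5 thus held 26.3%, 27.6%, 14.5% and 6.58% of the members, and 29.1%, 22.5%, 16.2% and 9.49% of all genes tested. Lower were 29 of 40 tested members on chromosome 1, 35 of 42 on chromosome 2, 27 of 36 on chromosome 3, 20 of 22 on chromosome 4 and 9 of 10 on chromosome 5, beside 38.3% of all genes tested. Some members were neighbours: 18 fell into 8 groups in which consecutive members were at most 5 genes apart in the table. All 18 were lower, beside 80.0% of all tested members and 38.3% of all genes tested. In 6 of the groups each member was below a log2 fold change of −3. As single genes, 54.0% of tested members and 12.6% of all genes tested were below −3, which is not a share of groups. The largest such group held 4 members on chromosome 1. BdiBd21-3.1G0423900 had 1, 0 and 0 counts in the libraries labelled protoplasted against 92.4, 54.5 and 66.2 CPM in the others, and BdiBd21-3.1G0424000 had 0 counts in each against 22.8, 14.8 and 21.6 CPM. BdiBd21-3.1G0423600 and BdiBd21-3.1G0424100 also had 0 counts in each, with up to 14.3 CPM and up to 2.86 CPM in the others. All 4 were therefore at the floor in the libraries labelled protoplasted, at least 642-fold, 178-fold, 90.4-fold and 21.5-fold lower in the order given. Neighbours can be copies of one another or overlap, and the counting mode and use of strand were not given, so reads may have been exchanged between them.

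Shorter members had the lower log2 fold changes. The gene models of tested members ran from 251 to 12926 bases, with a median of 2265.5 against 3170 for all genes tested. Of 102 members shorter than that overall median, 66 were below a log2 fold change of −3 and their median was −4.57, whereas of 48 longer ones 15 were, with a median of −1.87. Among all genes tested, 17.8% of the shorter and 7.31% of the longer genes were below −3. Spearman's rho between length and log2 fold change was 0.32 over the members and −0.05 over all genes tested, and the part of length in the result was not tested.

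The shares of cells that chose the members can be set beside the bulk levels as a description only. Spearman's rho between the share of the group's cells and the mean TPM was 0.48 for the libraries labelled protoplasted and 0.55 for the others, and it was 0.22 between that share and the log2 fold change (150 members each). The share in other cells gave 0.51, 0.55 and 0.26.

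The members were next set beside the stage 0–2 markers that had been left out for being on the list of another cell type. Those lists were taken whole here, so they include genes that were not higher in the other cell type. Of 350 tested markers shared with the silica lineage list but not with the mesophyll list, 279 were lower (79.7%) and 28 higher, with a median log2 fold change of −2.63. Of 220 shared with the mesophyll list, 94 were lower (42.7%) and 110 higher, with a median of 0.41. The members thus had a share of lower genes close to that of the set on the silica lineage list only. Their median was lower than that of either set, a difference that was not tested.

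Further sets held only genes that the study lists as higher in the cell type and that are not on the stage 0–2 list. Of 1191 such silica lineage markers, 798 were lower (67.0%, median −1.31). Of 1477 such mesophyll markers, 212 were lower and 988 higher (66.9%, median 0.73). Among all genes tested, 38.3% were lower and 38.7% higher. All 1628 mesophyll markers in the table, stage 0–2 genes included, summed to 326941 to 351810 TPM in the libraries labelled protoplasted and to 161462 to 188285 TPM in the others. The summed TPM of these markers, which need not be confined to mesophyll, thus moved in the direction opposite to the members. Whether it follows the share of mesophyll RNA, and its part in the members' result, was not tested.

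**Figure D4:**
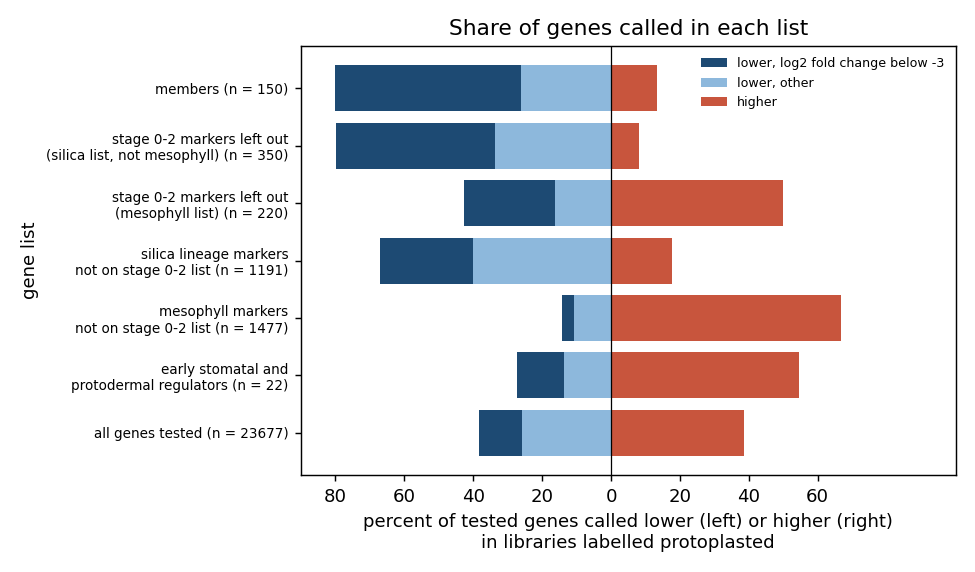
Percent of the tested genes of each list that were lower (left, dark where the log2 fold change was below −3) or higher (right) in the libraries labelled protoplasted, from one fit over all genes. The members show 80.0% lower and 13.3% higher, the mesophyll markers that are not on the stage 0–2 list 66.9% higher, and all genes tested 38.3% lower and 38.7% higher.

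Named regulators of stomatal development and of the protoderm went in both directions. They are not confined to stage 0–2. The study describes *BdEPF2-1* and *BdEPF2-2* as mainly expressed in the guard cell lineage, and the YDA and MAP kinase genes as expressed rather broadly. Of 22 genes named by the study and grouped here as early stomatal and protodermal regulators, 12 were higher (54.5%), 6 lower (27.3%) and 4 not called. Of all genes tested, 38.7% were higher and 38.3% lower, and whether these 22 genes differ from that was not tested. Their median log2 fold change was 0.87. None of them could be a member, because genes that carry a name in the study were left out. *BdSPCH1* and *BdSPCH2*, homologs of the factor that starts the lineage in Arabidopsis, had 45 to 53 and 28 to 36 counts where labelled protoplasted but at most 1 and at most 3 in the other group, at least 11.3-fold and 7.27-fold higher. *BdTMM*, homolog of a receptor-like protein of stomatal patterning, was higher too (2.46 ± 0.455 against 0.163 ± 0.0862 CPM, SD, n = 3 each, adjusted p = 1.44e-05, edgeR). These 3 genes, counted among the 12, had fewer than 10 counts in every library labelled non-protoplasted. They thus entered the test only through the group where they are high, and their calls say little about direction. *BdMPK3-like*, named after a stress and development MAP kinase, fell from 1054 to 1.54 CPM (log2 fold change −9.42 ± 0.23 SE, adjusted p = 4.18e-09, edgeR).

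Named marker genes of the epidermis, the stomatal lineage and other cells were mostly higher in the libraries labelled protoplasted. Of 7 genes grouped here as markers of the protoderm and early stomatal lineage, 5 were higher and 2 not called. They are not confined to stage 0–2: the study uses *BdEPF2-1*, which was not called, for the guard cell lineage, and *BdPDF1* for the epidermis. Those higher include *BdSPCH1*, *BdSPCH2* and *BdTMM*, which entered the test only through the group where they are high and could hardly have been called lower. Of 16 markers of later stomatal stages and of hair, silica, mesophyll, shoot apex and vascular cells, 12 were higher, 0 lower, 1 not called and 3 not tested, where 38.7% of all genes tested were higher. *BdMUTE* and *BdWOX4* among those higher also had fewer than 10 counts in every library labelled non-protoplasted. Silica cells are represented here by *BdSLP1-like3* alone, which was higher. The study uses this gene for mature hair cells as well, so its level cannot be assigned to silica cells. Of the 1635 tested silica lineage markers, in contrast, 1153 were lower (70.5%, background 38.3%) and 253 higher (15.5%). The protoderm and epidermis marker *BdPDF1* stood at 157 to 228 CPM in the libraries labelled protoplasted and at 15.1 to 19.8 CPM in the others, a direction opposite to that of most members. The shoot apex marker *BdKN1* had 0 counts in all 6 libraries. All 23 marker genes summed to 945.6 to 1283.5 CPM in the libraries labelled protoplasted and to 268.8 to 350.2 CPM in the others. In the libraries labelled protoplasted the sum rests largely on *BdSLP1-like3*, *BdXCP1-like*, *BdPDF1* and *BdSLP1-like5* (mean 337.1, 202.3, 192.5 and 142.7 CPM). The part of cell type composition in the members' result was not tested.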

How the data were processed

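RNA of leaf developmental zones was sequenced in 6 libraries. The authors checked reads with FastQC, mapped them with bowtie2, which does not split reads across introns, to the Bd21-3 v1.1 genome and counted them per gene with summarizeOverlaps. They deposited raw counts without normalization, a signal in reads per kilobase (counts over gene length), TPM, which is that signal scaled to a fixed sum per library, the mean TPM of each group, and gene lengths. Counting mode and strand are not given in the sources used here. Of per-sample columns, 0 belonged to other samples.

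The deposited counts were tested with edgeR 4.0.16 (R 4.3.3): filterByExpr with a minimum count of 10, TMM, glmQLFit and glmQLFTest, a prior count of 0.125, Benjamini-Hochberg adjustment over all 23677 genes tested and a threshold of 0.05. Standard errors are the absolute log2 fold change over the square root of F. Genes with at most 3 counts in every library of a group were set at 3 counts per library for lower bounds. The replicates are described as biological, and p-values measure the spread between these libraries. The script was tested on simulated data.

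Members and lists were chosen with earlier results of these data known, from the study's marker tables, of which the text at hand is cut. Those tables use genome version 1.2, and 2 members were not in the count table. Named members were the 5 first and 2 last of the ranking, the 3 highest and 3 lowest log2 fold changes among called members without overlap and with a mean of at least 10 CPM, the 3 highest mean TPM, and the 3 nearest to 0 with at least 10 CPM; members whose Bd21 locus is annotated in the RefSeq table were to be named too, and of the 10 members with a Bd21 locus 0 matched it. The neighbours on chromosome 1 were named for being the largest group. Alternatives were DESeq2 1.42.0, limma 3.58.1 (voom, and trend on log2(TPM + 1) and log2(TPM + 0.1)), RLE, library size only, all genes with a count, a minimum of 10 counts in every library, a prior count of 2, a replicate block, each library left out, the groups of the treatment entry, and other readings of the member rule.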

Additional observations from a re-analysis of the deposited data

How the results depend on the processing

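The counts of lower (116 to 121) and higher (20 to 26) members stayed within 1.5 times under RLE, library size only, DESeq2, limma-voom, both limma-trend fits, all genes with a count and a prior count of 2. The median log2 fold change of −3.43 became −3.03 with library size only, −3.15 on log2(TPM + 0.1) and −2.71 on log2(TPM + 1), settings that moved the median of all genes by 0.38, 0.27 and 0.21. With at least 10 counts in every library, 104 members were tested, 74 were lower, 35 below −3, and the median was −1.93, since that filter removes members without reads in one group. Leaving out each library in turn gave 120 to 121 lower, 19 to 22 higher, 78 to 82 below −3, 1 above 3 and medians of −3.76 (without library 3 labelled protoplasted) to −3.27.

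Replicate numbers were the only link between samples. Same-numbered libraries deviated together with correlations of 0.121, 0.0379 and 0.0832, and library 2 labelled protoplasted correlated best with library 3 of the other group, so the numbers were not taken as pairs. The replicate block gave 121 lower, 20 higher, 81 below −3, 1 above 3 and a median of −3.42.

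Taking 200 genes first and leaving out other lists afterwards kept 22 tested genes, with 17 lower, 4 higher, 10 below −3, 0 above 3 and a median of −2.67. The 200 largest differences with none left out gave a median of −2.63 and 0 above 3. All 722 tested genes of the list gave 495 lower, 158 higher, 302 below −3 and a median of −2.06. Under the treatment entry of the labels, 120 members were higher, 20 lower, 81 above 3 and 1 below −3, with a median of 3.43. The named members then stood at 16.39 (BdiBd21-3.3G0124100), 1.97 (BdiBd21-3.2G0023400), 6.96 (BdiBd21-3.4G0511900), 0.87 (BdiBd21-3.2G0163300), −0.43 (BdiBd21-3.3G0318500), 14.84 (BdiBd21-3.2G0252000), −1.56 (BdiBd21-3.3G0067800), 13.05 (BdiBd21-3.2G0061700), −1.89 (BdiBd21-3.2G0716900), 0.09 (BdiBd21-3.3G0196900), 0.08 (BdiBd21-3.1G0483400), 8.39 (BdiBd21-3.3G0696400), −0.59 (BdiBd21-3.3G0439300), −0.02 (BdiBd21-3.2G0760100), −3.79 (BdiBd21-3.3G0128900), 4.16 (BdiBd21-3.1G0842200) and −1.77 (BdiBd21-3.1G1053300).

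Among the 17 members named by rule, the 3 near 0 changed sign in other alternatives, and the neighbours on chromosome 1 were not followed here. BdiBd21-3.3G0196900 turned to 0.29 with library size only, where it was called higher (adjusted p = 0.0338, edgeR), and to 0.20 in both limma-trend fits, where it was not called. BdiBd21-3.1G0483400 turned to 0.31 with library size only, also called higher (adjusted p = 0.0334, edgeR), and to 0.21 and 0.20, not called. BdiBd21-3.2G0760100 turned to −0.03 with DESeq2, −0.05 with RLE and −0.01 with 10 counts in every library, ran from −0.06 to 0.09 with a library left out, and was called higher with library size only (0.40) and limma-trend (0.30 and 0.29). The other causes were not tested. Depth limits the genes at the floor, whose folds are lower bounds.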
